A study of Mus musculus with 96 samples.

Results

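The transcription factor ChREBP (Mlxipl) and 4 genes known to answer to carbohydrate, Pklr, Txnip, Arrdc4 and Khk, were followed as a group in islets and liver of mice on high-fat diet (HFD) or chow diet (CD). Of the 5, Txnip alone passed the test of a higher mean level on HFD in both tissues, and its level in the islets of a mouse tracked its level in the liver of that mouse. Of all genes tested 16.9% were higher on HFD in islets and 34.4% in liver, and the share higher in both was not computed. The 5 genes were taken by symbol from the deposited table, which lists 21990 genes with values for 20155, and all 5 had values in every library. The libraries come from pancreatic islets and liver of the same 48 male C57BL/6N mice, bought at 4 weeks of age and then kept for 4, 8, 12, 16, 20 or 24 weeks on CD, which was LabDiet 5001, or on HFD, the D12492 diet of Research Diets in which fat makes up 60%. There were 4 mice for each diet and week, 24 mice per diet and 96 libraries in all. The labels name no transgene and no drug. The 2 diets differ in source, carbohydrate and fibre as well as in fat, so HFD against CD is a comparison of 2 whole diets, and weeks on diet cannot be told apart from age or from the time of collection.

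ChREBP is a glucose-activated transcription factor that binds DNA with its partner Mlx and switches on genes of glycolysis, fructose use and fat synthesis in liver, and it also acts in beta cells. Pklr encodes the pyruvate kinase of liver and red cells, the last step of glycolysis. Txnip encodes thioredoxin-interacting protein, an alpha-arrestin that holds back glucose uptake and binds thioredoxin, and in beta cells it is known as a glucose-induced gene that promotes cell death when in excess. Arrdc4 is its close relative, and Khk encodes ketohexokinase, which phosphorylates fructose. ChREBP binds a carbohydrate response element made of a pair of E-boxes set apart by 5 bases.

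In GRCm38 coordinates Mlxipl lies at chr5:135089891-135138382 on the plus strand, Pklr at chr3:89136129-89146775 and Txnip at chr3:96557957-96561857, both on the plus strand, Arrdc4 at chr7:68736994-68749238 on the minus strand and Khk at chr5:30921436-30931248 on the plus strand. RefSeq promoter windows of 300 bases, from 250 before to 50 after a transcription start (GRCm38.p6), were held for all 5 genes, with 2 alternative starts for Mlxipl and for Pklr. A spaced motif, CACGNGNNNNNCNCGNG on either strand, was found in 120 of 32851 promoter windows (0.365%), and the windows of Txnip and of the second Pklr start were among them. The first base of the motif stood 85 bases before the Txnip start and 170 bases before the Pklr start, and the Pklr match reads as the motif on both strands. The plain E-box CACGTG, which can lie inside the spaced motif but did not in these windows, was present in 7.15% of all windows. It stood 98 bases before the first Mlxipl start, 193 before the Arrdc4 start and 71 before the Khk start, and the remaining windows of Mlxipl and Pklr held neither motif. The RefSeq start of Khk and the second of Pklr lie downstream of the starts of the gene spans given above. Their motifs therefore fall inside those spans. The 250 bases before the start are given for Txnip and Pklr because they carry the spaced motif, and 60 bases around the E-box are given for the other 3 genes, each 5′ to 3′ on the strand of the gene with the motif in capitals. The stretches are chr3:96557707-96557956 for Txnip, chr3:89136373-89136622 for Pklr, chr5:135089765-135089824 for Mlxipl, chr7:68749399-68749458 (minus strand) for Arrdc4 and chr5:30921461-30921520 for Khk.
Txnip: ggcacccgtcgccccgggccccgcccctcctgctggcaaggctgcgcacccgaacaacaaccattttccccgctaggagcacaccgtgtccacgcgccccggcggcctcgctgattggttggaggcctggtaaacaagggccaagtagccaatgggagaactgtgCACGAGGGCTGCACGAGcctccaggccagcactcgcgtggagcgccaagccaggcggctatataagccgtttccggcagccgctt
Pklr: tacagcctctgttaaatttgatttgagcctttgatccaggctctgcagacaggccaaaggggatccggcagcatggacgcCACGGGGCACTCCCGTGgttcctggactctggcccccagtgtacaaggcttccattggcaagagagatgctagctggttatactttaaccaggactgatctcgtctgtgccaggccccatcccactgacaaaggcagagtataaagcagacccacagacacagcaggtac
Mlxipl: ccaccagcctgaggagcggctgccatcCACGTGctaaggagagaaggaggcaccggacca
Arrdc4: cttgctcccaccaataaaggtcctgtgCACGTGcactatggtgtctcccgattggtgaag
Khk: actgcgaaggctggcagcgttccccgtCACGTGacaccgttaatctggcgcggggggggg
A match is a spelling in the reference and no binding was measured. The gene-level values used here also do not separate the alternative starts of Mlxipl and Pklr or the splice forms of Khk.

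Levels are in FPKM, fragments per kilobase of transcript per 1000000 mapped, so levels of different genes can be set side by side. In CD liver Khk was the most abundant of the 5 with a median of 301.6 FPKM over 24 mice, followed by Mlxipl with 77.6, Pklr with 63.9, Txnip with 50.4 and Arrdc4 with 3.41. In CD islets the order was different. Txnip stood first with a median of 122 FPKM and Mlxipl second with 109, while Khk had 14.4, Pklr 6.17 and Arrdc4 3.46. The middle 3 genes of the liver order and the top 2 of the islet order overlapped in their ranges over mice, as did Pklr and Arrdc4 in islets, so the order among them is not firm. Khk too went down to 177 FPKM in CD liver, under the highest mouse of Pklr at 179 and of Txnip at 256. On the log2(FPKM + 1) scale Khk was higher in CD liver than in CD islets by 4.38 (SE 0.08, adjusted p = 7.1e-63) and Pklr by 3.30 (SE 0.12, adjusted p = 1.5e-39), while Txnip was lower in liver, with a difference of -1.37 (SE 0.32, adjusted p = 6.6e-05). Of all 9024 genes tested in both tissues 93.9% differed in this comparison. Mlxipl differed by -0.26 (SE 0.08, adjusted p = 0.0033), but this turned to 0.21 when the libraries of both tissues were scaled by median ratios, and the Arrdc4 difference of -0.05 (SE 0.10, adjusted p = 0.64) turned to 0.33, so the direction between tissues is not settled for these 2 genes.

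**Figure D1:**
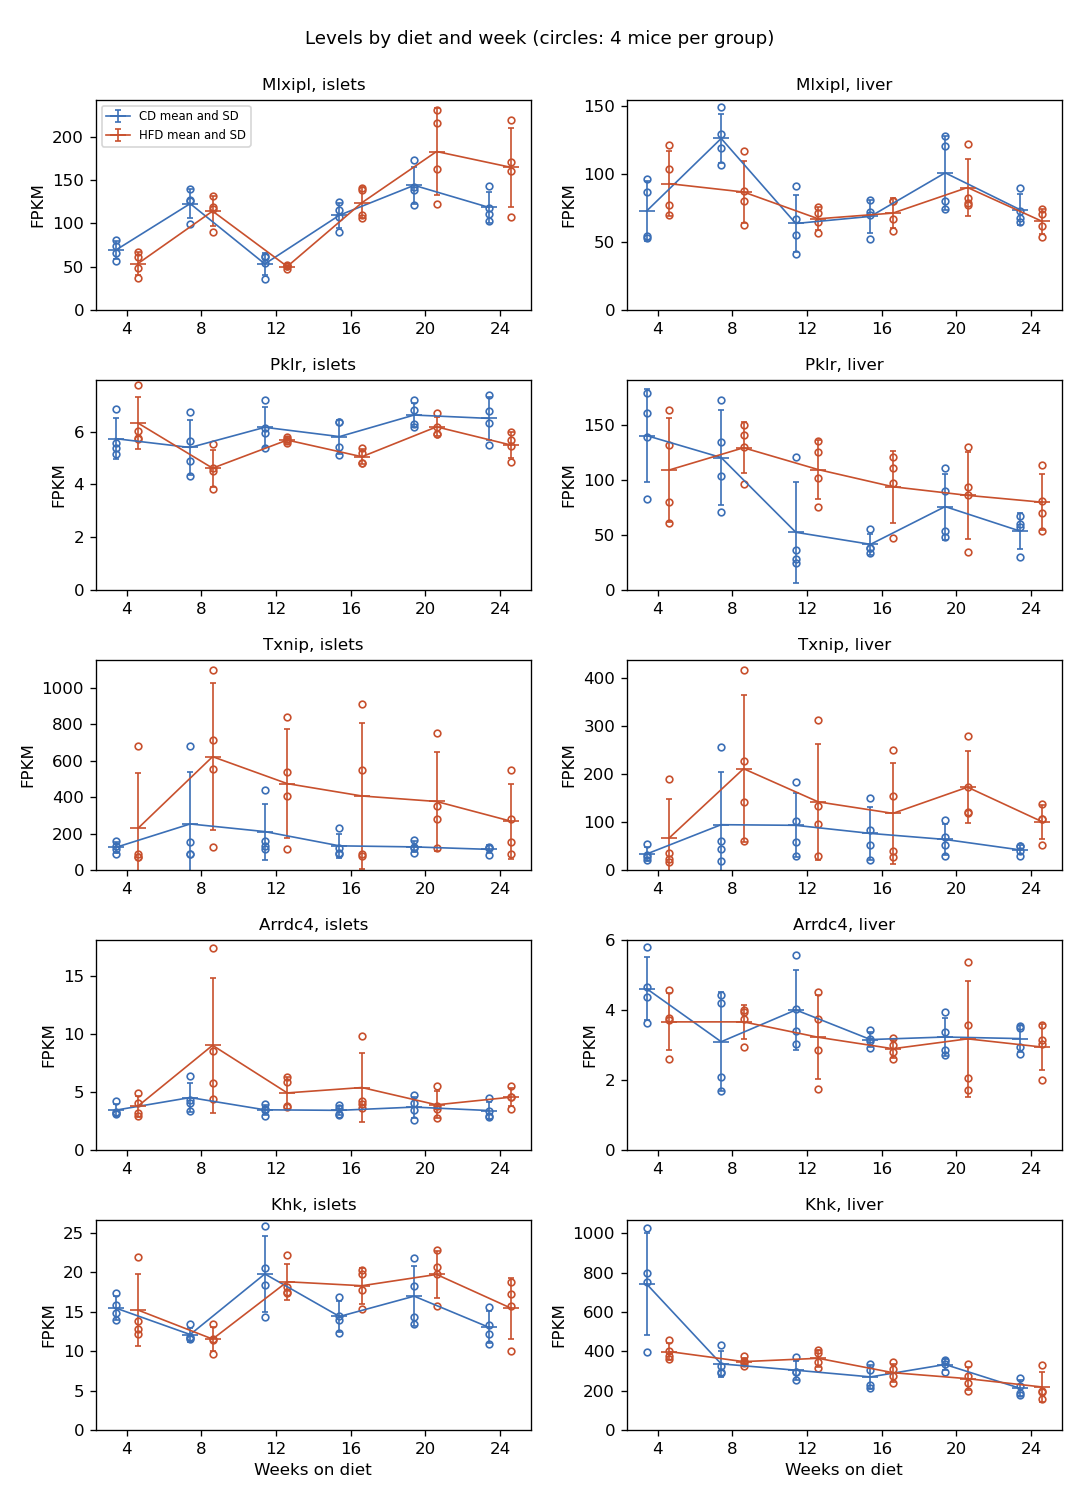
Level of each gene in FPKM (vertical axes, starting at 0) against weeks on diet for islets (left) and liver (right). Circles are single mice, 4 per group, and horizontal marks with bars are group means and SD, with bars cut at 0. Txnip is spread from 73.6 to 1097 FPKM among HFD islets, liver Khk is highest in CD mice at week 4, and islet Mlxipl is low in both diets at week 12.

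Averaged over the 6 weeks, HFD islets had more Txnip (log2 difference 0.99, SE 0.32, adjusted p = 0.014) and more Arrdc4 (0.34, SE 0.10, adjusted p = 0.0083), and slightly less Pklr (-0.10, SE 0.04, adjusted p = 0.042). HFD livers had more Txnip (0.90, SE 0.31, adjusted p = 0.021) and more Pklr (0.48, SE 0.16, adjusted p = 0.019). Mlxipl itself differed by 0.06 in islets (95% interval -0.10 to 0.23, adjusted p = 0.55) and by -0.06 in liver (-0.24 to 0.12, adjusted p = 0.64), and Khk by 0.10 in islets (-0.04 to 0.23, adjusted p = 0.27) and -0.12 in liver (-0.29 to 0.05, adjusted p = 0.24). The liver difference of Arrdc4 was -0.10 (-0.27 to 0.08, adjusted p = 0.39). Thus 3 of 5 genes passed the test in islets, where 37.8% of all 11556 genes tested did, and 2 of 5 in liver, where 41.3% of 9982 did, which for a set of 5 is not far from the background. The islet decrease of Pklr rests on a fine margin. It was -0.03 (adjusted p = 0.59) once the insulin genes were left out of the islet totals, and 21 of the 48 libraries could each be left out singly to bring its adjusted p above 0.05.

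**Figure D2:**
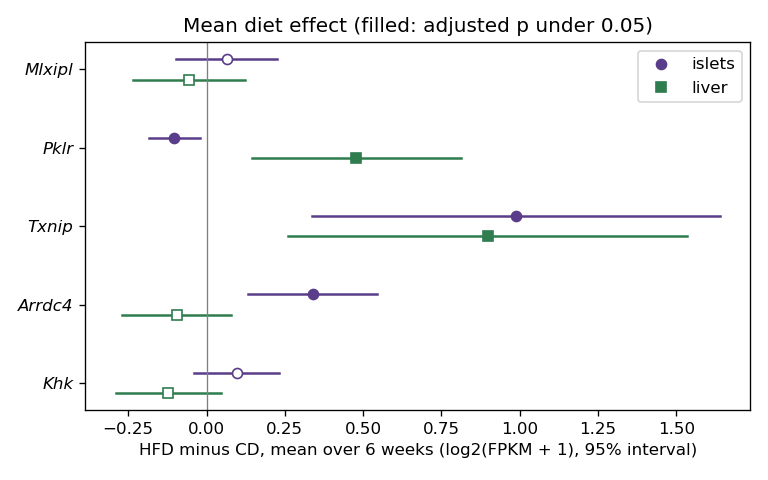
Difference HFD minus CD averaged over 6 weeks on the log2(FPKM + 1) scale (horizontal axis) for each gene, with 95% intervals. Circles are islets and squares are liver, 48 libraries each, and filled symbols have an adjusted p under 0.05. The intervals of Txnip lie above 0 in both tissues, and those of Pklr lie on opposite sides of 0.

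Week by week, with 4 mice against 4, no gene of the group passed limma's test after adjustment over all genes. In islets 0 of 5 were called in each of weeks 4, 8, 12, 16, 20 and 24, where 0, 5.27, 4.53, 8.45, 4.74 and 8.3% of all genes were. In liver it was 0 of 5 each week, where 0.0506, 7.49, 10.6, 7.43, 2.47 and 0.837% of all genes were called. At an unadjusted p under 0.05 there were 4 of 30 gene-by-week comparisons in islets, where 21% of the weekly tests over all genes were, and 7 of 30 in liver, where 19.9% were. The same test without the trend and robust settings called 0 in islets and 1 in liver. The share of all genes called without these settings was not computed. No gene of the group passed the test of a diet effect that differs over weeks, which 3.47% of islet genes and 1.29% of liver genes passed.

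Txnip was the most variable of the 5. In CD islets its 4 values at week 4 were 86.3, 115, 132 and 162 FPKM, against 73.6, 73.9, 85.6 and 682 in HFD islets. At week 8 CD mice had 89.8, 90.0, 152 and 681 FPKM and HFD mice had 124, 557.5, 712 and 1097. At week 12 the values were 113.04, 131, 161 and 440 FPKM on CD and 115, 409, 537 and 838 on HFD. At week 4 all HFD mice except that at 682 FPKM lay below every CD mouse, with medians of 79.7 on HFD and 124 on CD. At weeks 8 and 12 most CD mice sat near the low end and the HFD group held both low and high mice. The groups overlapped in each of these weeks. At week 16 CD islets had 89.5, 91.9, 121 and 229 FPKM, and HFD islets had 78.6, 88.8, 549.5 and 910.4. At week 20 the CD values were 94.2, 121, 126 and 168 FPKM and the HFD values 121, 278, 354 and 754. At week 24 they were 81.6, 121, 124 and 128 FPKM on CD and 87.5, 154, 278 and 552 on HFD. The weekly log2 difference was above 0 in 6 of 6 weeks, from 0.15 to 1.498, with a lowest adjusted p of 0.15. At week 20 it did not pass, and without mouse HFD516, the lowest HFD mouse of that week, the difference was 1.746 (adjusted p = 0.036). Here and below, a pass reached by leaving out a mouse that opposed the difference is not a call. The direction at week 4 turned on mouse HFD118, without which it was -0.63 (adjusted p = 0.38), or on mouse CD103 (-0.01 without it). The mean over 6 weeks without HFD118 was 0.86 (adjusted p = 0.024).

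In liver, where Txnip was lower, the same spread was seen. CD livers at week 4 had 20.6, 27.4, 30.4 and 54.6 FPKM and HFD livers 17.5, 22.9, 35.9 and 189. At week 8 the values were 18.2, 42.8, 60.5 and 256 on CD and 59.7, 141, 226 and 415.96 on HFD. At week 12 they were 29.2, 59.3, 101.1 and 183 on CD and 28.2, 95.1, 133 and 311 on HFD. These groups overlapped, each through a single high CD mouse or low HFD mice. At week 16 CD livers had 20.6, 52.5, 82.3 and 149.5 FPKM and HFD livers 27.6, 40.0, 154 and 251. At week 20 they had 29.5, 51.2, 68.8 and 105 FPKM on CD and 120.25, 173 and 278 on HFD, where the lowest of the 4 mice lay just under the first of these. At week 24 the CD values were 29.8, 38.9, 49.6 and 49.7 FPKM and the HFD values 51.6, 106.2, 107 and 137. Every HFD mouse exceeded every CD mouse at weeks 20 and 24, a separation in that direction that 6.58% and 8.14% of all liver genes showed. The group means were 2.71-fold and 2.39-fold apart, and the log2 differences were 1.47 (SE 0.41, adjusted p = 0.11) and 1.18 (SE 0.28, adjusted p = 0.094). Without mouse HFD617 the week 24 difference was 1.473 (adjusted p = 0.022) and passed. The liver difference was above 0 in 6 of 6 weeks as well, and in 3 of them 1 mouse decided the direction. At week 4 it was -0.34 without mouse HFD118, at week 12 it was -0.08 without HFD313 and just under 0 without CD307, and at week 16 it was -0.09 without CD405 and -0.12 without HFD411. The mean over 6 weeks without HFD118 was 0.78 (adjusted p = 0.035). The diet effect in liver minus that in islets was -0.09 (95% interval -0.99 to 0.81, adjusted p = 0.89), an interval wide enough to hold a sizeable difference in either direction.

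High and low Txnip values were shared by the 2 tissues of a mouse. The HFD mouse with most islet Txnip, 1097 FPKM at week 8, also had the most liver Txnip, 415.96. The only high HFD mouse of week 4 had 682 FPKM in islets and 189 in liver, while its 3 group mates had 73.6 to 85.6 and 17.5 to 35.9. The high CD mouse of week 8 had 681 FPKM in islets and 256 in liver, and the high CD mouse of week 12 had 440 and 183. With group means taken out of the log2(FPKM + 1) values, islet and liver Txnip of the 48 mice correlated with Pearson's r = 0.87 (p = 1e-05, the smallest that 100000 shuffles of mice within groups can give) and Spearman's rho = 0.82 (p = 1e-05). The adjusted p over the 5 genes was 5e-05 for both. Without the 2 mice farthest from the median r was 0.84, and it was 0.79 among CD and 0.94 among HFD mice. Of 9024 genes tested in both tissues 1 had a higher r, the heat shock gene Hsph1 with 0.90, and the median over all genes was 0.06.

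**Figure D3:**
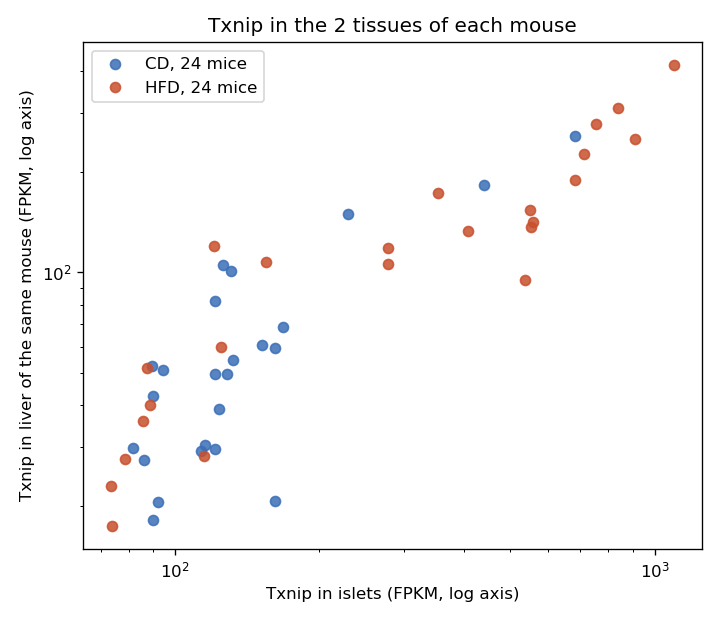
Txnip in the liver (vertical, FPKM, log axis) against Txnip in the islets of the same mouse (horizontal, FPKM, log axis), one point for each of 48 mice, blue CD and red HFD. Mice with high islet Txnip had high liver Txnip on either diet, from the CD mouse at 681 and 256 FPKM to the HFD mouse at 1097 and 415.96.

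For the other 4 genes the correlation over mice was weak or negative. Islet and liver levels gave r = 0.13 for Arrdc4 (rho = 0.06, p = 0.39, adjusted p = 0.39) and r = -0.27 for Mlxipl (rho = -0.27, p = 0.12, adjusted p = 0.15). For Pklr r was -0.40 (rho = -0.40, p = 0.014, adjusted p = 0.034) and for Khk -0.36 (rho = -0.43, p = 0.022, adjusted p = 0.036), and without the 2 farthest mice they were -0.37 and -0.41. With median-ratio scaling of the libraries these 2 fell short of the threshold, at -0.21 (adjusted p = 0.21) and -0.27 (adjusted p = 0.21), while Txnip stayed at 0.87 or above under both alternatives tried. Within the diets, r for Pklr was -0.46 on CD and -0.31 on HFD, and for Khk -0.43 and -0.29.

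**Figure D4:**
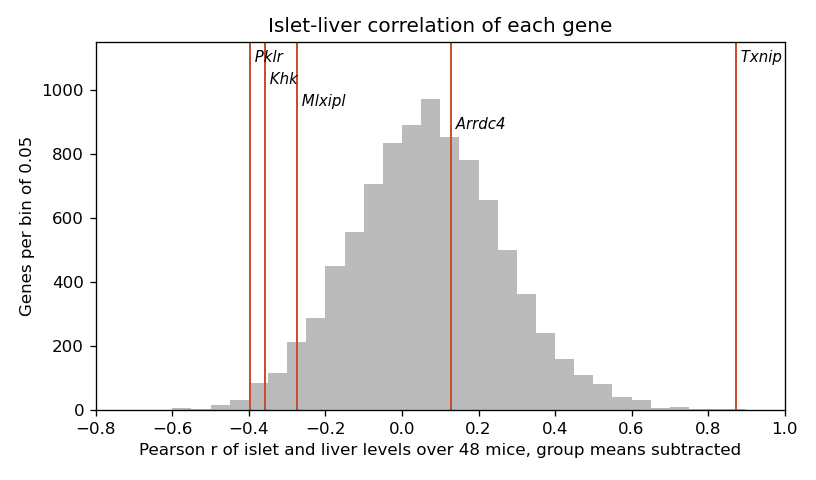
Number of genes (vertical axis, starting at 0) in bins of Pearson's r between islet and liver levels over 48 mice after group means were subtracted (horizontal axis), for 9024 genes. Red lines mark the 5 genes. Txnip lies at the right end at 0.87, Arrdc4 near the middle at 0.13, and Pklr, Khk and Mlxipl to the left of the bulk.

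The genes that varied most like Txnip over the 48 mice, group means subtracted, were in islets its relative Arrdc3 (r = 0.90), 8430408G22Rik (0.89) and Ddit4 (0.89), an inhibitor of mTORC1 signalling. In liver they were the immediate early genes Egr1 (0.80) and Jun (0.79), followed by Angptl4 (0.78), an inhibitor of lipoprotein lipase. The summed level of 7 immediate early genes, the first genes to respond to many stimuli, correlated with Txnip with r = 0.78 in liver and 0.47 in islets. That sum had a median of 104.5 FPKM in HFD livers (29.6 to 626) against 51.0 in CD livers (28.1 to 326), and of 60.8 in HFD islets (16.1 to 374) against 66.5 in CD islets (20.7 to 325). Its part in the Txnip differences was not tested. A sum over 11 clock genes gave r = 0.25 with Txnip in liver and 0.04 in islets. That sum follows its abundant genes, with liver medians of 57.9 FPKM for Dbp and 1.35 for Arntl. It therefore cannot speak for single clock genes or for the time of collection. The clock gene Per1 had an islet-liver r of 0.76, at rank 9 of 9024 genes. Each such r is a description over 48 libraries that share sequencing scale.

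Arrdc4, the other alpha-arrestin of the group, was higher in HFD islets, and in liver its difference did not pass the test. Islet values in CD mice at week 8 were 3.40, 4.02, 4.29 and 6.36 FPKM, against 4.40, 5.74, 8.55 and 17.4 in HFD mice. At week 12 they were 2.92, 3.48, 3.50 and 3.95 FPKM on CD and 3.71, 3.81, 5.89 and 6.26 on HFD. At week 24 they were 2.84, 2.93, 3.36 and 4.47 FPKM on CD and 3.55, 4.56, 4.60 and 5.50 on HFD. In these weeks 1 CD mouse lay above the lowest HFD mouse, and in weeks 4, 16 and 20 the groups overlapped more widely. The HFD difference was above 0 in 6 of 6 weeks, from 0.05 to 0.72, with a lowest adjusted p of 0.12. Leaving out mouse HFD315 or HFD318 at week 12 brought the difference to 0.48 (adjusted p = 0.035) or 0.47 (adjusted p = 0.037), and leaving out mouse CD606 at week 24 brought it to 0.45 (adjusted p = 0.040). In the other direction, the week 4 difference was -0.01 without mouse HFD118, and that of week 20 was -0.09 without HFD511 and -0.07 without CD507. In liver all values lay between 1.68 and 5.80 FPKM, and the weekly difference was below 0 in 5 of 6 weeks, of which week 20 (0.03 without HFD517 and 0.08 without HFD518) and week 24 (0.03 without HFD611) rested on 1 mouse. The diet effect in liver minus that in islets was -0.43 (SE 0.13, adjusted p = 0.0075), one of the 2 of 5 genes past this test, which 39.4% of all genes passed. In islets Arrdc4 and Txnip went together over mice with r = 0.57 (rho = 0.51, p = 0.00084, adjusted p = 0.0042 over 20 gene pairs, 0.53 without the 2 farthest). In liver they gave r = 0.13 (p = 0.47). The genes most like Arrdc4 were Msl3l2 (r = 0.80), Klf10 (0.73) and Thbs1 (0.73) in islets, and Cyp46a1 (0.76), Adgrl1 (0.75) and Pcsk4 (0.74) in liver.

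Pklr was far more abundant in liver than in islets and was higher on HFD there. At week 4 CD livers had 82.5, 139.6, 161 and 179 FPKM and HFD livers 60.7, 80.3, 132 and 164. At week 8 they had 70.8, 103.8, 135 and 173 on CD and 96.9, 129.8, 141 and 149.75 on HFD. The groups overlapped, with CD the higher mean at week 4. At week 12 the CD values split into 24.3, 28.2 and 36.8 FPKM and a single mouse at 121, against 75.5, 102, 125 and 135 on HFD. At week 16 CD livers had 34.0, 38.5, 38.6 and 55.3 FPKM and HFD livers 47.1, 97.5, 111 and 121. The log2 difference was 1.33 (SE 0.49, adjusted p = 0.12) at week 12 and 1.096 (SE 0.29, adjusted p = 0.057) at week 16. Neither passed. Without the high CD mouse the week 12 value was 1.83 (adjusted p = 0.00238). Without the low HFD mouse the week 16 value was 1.395 (adjusted p = 0.0011), and neither of these is a call. At week 20 the values were 48.1, 54.1, 90.5 and 111 FPKM on CD and 34.2, 86.2, 94.1 and 130.1 on HFD. At week 24 they were 29.98, 57.2, 60.3 and 67.4 on CD and 54.0, 70.4, 81.3 and 113.95 on HFD. HFD was higher on average in 5 of 6 weeks. The difference fell below 0 at week 8 without mouse CD205 (-0.07) and at week 20 without CD505 (-0.07), CD507 (-0.02) or HFD511 (-0.13). Liver Pklr differed over weeks in CD mice (F test, adjusted p = 0.0011, passed by 57.6% of liver genes) and did not pass in HFD mice (adjusted p = 0.49, passed by 50.4%), and the test of a diet effect that differs over weeks gave an adjusted p of 0.32.

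Islet Pklr was low and tight, between 4.33 and 7.40 FPKM on CD and between 3.81 and 7.77 on HFD, and lower on HFD on average in 5 of 6 weeks with a weekly difference that reached -0.21 at week 24. The diet effect in liver minus that in islets was 0.58 (SE 0.17, adjusted p = 0.0055). The genes most like Pklr in liver were Acaca (r = 0.88) and Elovl6 (0.85), enzymes of fatty acid synthesis and elongation, and Tkfc (0.88), which phosphorylates glyceraldehyde from fructose. All 3 are on the lists of related genes below. In islets they were Maff (0.72), Flot1 (0.67) and Cfap126 (0.66).

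Khk had its highest values in the youngest CD livers. At week 4 these had 399, 751, 799 and 1026 FPKM, against 362, 377, 402 and 457 in HFD livers, so that all but the lowest CD mouse exceeded every HFD mouse. The log2 difference was -0.82 (SE 0.26, adjusted p = 0.25), and without the lowest CD mouse it was -1.09 (adjusted p = 0.025). From week 8 on, CD livers lay between 177 and 435 FPKM and HFD livers between 156 and 409, and the weekly difference ran from -0.37 to 0.27. Khk changed over weeks in liver on either diet (F test, adjusted p = 1.2e-06 on CD and 0.0022 on HFD). Of all liver genes 57.6% passed this test on CD and 50.4% on HFD. The test of a diet effect that differs over weeks gave an adjusted p of 0.13 for Khk. With median-ratio scaling the mean liver difference passed the threshold, at -0.21 (adjusted p = 0.034). In islets Khk stayed between 9.68 and 25.8 FPKM. At week 16 CD islets had 12.2, 13.9, 14.5 and 16.9 FPKM and HFD islets 15.3, 17.7, 19.8 and 20.3, a difference of 0.33 (SE 0.10, adjusted p = 0.066). In that week 1 CD mouse lay above the lowest HFD mouse, and the difference passed at 0.40 without mouse CD407 (adjusted p = 0.024) or mouse HFD418 (adjusted p = 0.027). With the insulin genes left out of the islet totals the mean islet difference was 0.18 (adjusted p = 0.025), where the median of all islet genes moved from -0.01 to 0.07.

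Khk went with Pklr over mice in both tissues, with r = 0.67 in liver (rho = 0.69, p = 1e-05, adjusted p = 2e-04, 0.66 without the 2 farthest) and 0.56 in islets (rho = 0.57, p = 0.00013, adjusted p = 0.00087, 0.50 without the 2 farthest). In islets it also went with Mlxipl (r = 0.66, rho = 0.61, p = 0.00013, adjusted p = 0.00087, 0.58 without the 2 farthest), whereas in liver r was -0.04 (p = 0.84). In liver it went with Arrdc4 (r = 0.45, rho = 0.42, p = 0.0032, adjusted p = 0.013, 0.40 without the 2 farthest). Within the diets the liver r of Khk and Pklr was 0.60 on CD and 0.78 on HFD. With Txnip against Arrdc4 in islets these were the 5 of 20 pairs past the threshold by Pearson's r. The share of all gene pairs that would pass the same test was not computed. The 5 pairs therefore cannot be called particular to this group. Islet Mlxipl with Pklr passed by rank alone (r = 0.39, p = 0.016, adjusted p = 0.054, rho = 0.45, p = 0.0043, adjusted p = 0.017). The genes most like Khk in liver were the respiratory complex I genes Ndufa8 (r = 0.84) and Ndufc2 (0.84) and the deoxyribose-phosphate aldolase Dera (0.83). In islets they were the sodium-calcium exchanger Slc8a2 (0.77), the carbonyl reductase Cbr1 (0.77) and Usf2 (0.76), an E-box binding transcription factor.

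Mlxipl, the regulator, differed widely between weeks, and its mean diet difference passed in neither tissue. Means of CD islets from week 4 to week 24 were 69.0 ± 10.5 FPKM (SD, n = 4), 123 ± 16.8, 53.2 ± 12.3, 109 ± 14.5, 144 ± 21.4 and 118.4 ± 17.7 in the order of the 6 weeks. HFD islets had 53.6 ± 13.6, 114.1 ± 17.3, 50.2 ± 2.19, 124 ± 18.0, 183 ± 49.9 and 164.5 ± 45.9 FPKM. Weeks 4 and 12 were the lowest and week 20 the highest in each diet. All 8 mice of week 12 lay between 35.6 and 62.1 FPKM, below every mouse of weeks 8 and 16, which lay between 90.1 and 140.3. The week effect had an adjusted p of 8.3e-08 in CD islets, where 79.1% of all genes passed, and 1.6e-11 in HFD islets, where 85.2% did. Islet Khk was highest at that same week 12 in CD mice, 14.4, 18.4, 20.5 and 25.8 FPKM, although the 2 genes went together within groups. The HFD difference of islet Mlxipl was below 0 in weeks 4, 8 and 12 and above 0 in weeks 16, 20 and 24, from -0.38 to 0.44, and the early minus late diet effect was -0.49 (SE 0.16, adjusted p = 0.088). At week 12 it was 0.03 without mouse CD306 or CD307, and at week 8 it lost its sign without HFD212. The islet difference passed at week 20 without mouse HFD511 (0.49, adjusted p = 0.048) and at week 24 without mouse HFD614 (0.62, adjusted p = 0.016).

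In liver, Mlxipl lay between 41.4 and 149 FPKM on CD and between 53.9 and 122 on HFD. At week 8 CD livers had 107, 119, 129.6 and 149 FPKM and HFD livers 62.8, 80.0, 87.7 and 117, a log2 difference of -0.56 (SE 0.18, adjusted p = 0.10) with 1 HFD mouse inside the CD range. Without that mouse the difference was -0.71 (adjusted p = 0.018). Mlxipl changed over weeks in CD liver (F test, adjusted p = 0.0012), where 57.6% of all genes passed. In HFD liver, where 50.4% passed, its adjusted p was 0.15. The genes most like it were Zdhhc1 (r = 0.84), Bmp1 (0.83) and Pisd (0.83) in islets and 0610030E20Rik (0.83), Impa1 (0.83) and Kri1 (0.82) in liver. Its own r with the 4 target genes in liver ran from -0.22 for Arrdc4 to 0.27 for Pklr, and no liver pair with Mlxipl passed the threshold.

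Genes around the group were followed through lists of partners, sugar-handling enzymes and other known targets, with the mean diet effect over 6 weeks as the measure. Counts of these lists stand against shares of all genes of 34.4% higher and 6.88% lower in liver and of 16.9% higher and 20.9% lower in islets. Of 6 partners and regulators of ChREBP, 1 rose in HFD liver, the sterol receptor LXR-alpha Nr1h3 (0.16, adjusted p = 0.00086), and in islets 1 rose, Nr1h3 (0.25), and 2 fell, Hcfc1 (-0.19) and Hnf4a (-0.15), which for 6 genes is near or below those shares. The ChREBP partner Mlx differed by 0.06 in liver and -0.02 in islets and passed in neither. Among genes of hexose entry in islets, the fructose carrier Slc2a5 rose (0.08) and the glucose carrier Slc2a2 fell (-0.36, adjusted p = 0.0016).

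Of 17 lipogenic and other ChREBP targets tested in liver 3 rose and 1 fell, a smaller share of higher genes than the 34.4% of all liver genes. The 3 that rose were the hormone Fgf21 (1.58, SE 0.25, adjusted p = 5.1e-06), the G-protein regulator Rgs16 (1.04, SE 0.40, adjusted p = 0.033) and the zinc finger factor Klf10 (0.45, adjusted p = 0.039), with the lipoprotein gene Tm6sf2 lower (-0.44, adjusted p = 1.8e-05). The lipogenic regulator Thrsp had 0.78 (adjusted p = 0.064). The enzymes of fat synthesis did not pass, with 0.22 for Fasn, 0.10 for Acaca, 0.04 for Elovl6, -0.02 for Acly, -0.13 for Me1, -0.21 for Acacb and -0.56 for Scd1. The median of the list was 0.14 in liver, and that of all genes was 0.07. In islets 2 of 14 rose and 3 fell, against 16.9% higher and 20.9% lower of all islet genes, led by Scd1 (-0.46, adjusted p = 1.7e-06) and Rgs16 (0.45, adjusted p = 0.015). The median of the list was -0.02 in islets, where that of all genes was -0.01.

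Of 12 other glycolytic enzymes tested in liver 7 rose, where 34.4% of all genes did, among them the other pyruvate kinase Pkm (0.69, adjusted p = 8.8e-07), the phosphofructokinase Pfkl (0.38, adjusted p = 9.9e-06) and Pgam1 (0.37, adjusted p = 3.1e-08), and 1 fell, Aldoc (-0.31), where 6.88% did. Their median was 0.19, and that of all genes 0.07. In islets 4 of 14 rose and 2 fell, where 16.9% and 20.9% of all genes did, with Hk1 (-0.38, adjusted p = 8.8e-10), Pgk1 (0.17) and Aldoc (-0.16) the largest. Of 7 further alpha-arrestin and thioredoxin genes 2 rose in liver, Arrdc3 (0.58) and Txn1 (0.20), and 1 rose in islets, Arrdc3 (0.48), shares no larger than the 34.4% and 16.9% of all genes that were higher.

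Cell type and state markers were counted in the same way, against the 34.4% higher and 6.88% lower of all liver genes and the 16.9% and 20.9% of all islet genes. In islets all 4 alpha cell markers and all 3 delta cell markers tested were lower on HFD, 4 of 9 acinar markers were lower, and of 7 beta cell markers 4 were higher and 1 lower. In liver all 5 stromal and 5 of 6 macrophage markers were higher on HFD and 3 of 6 hepatocyte markers were lower. Of the immediate early genes 2 of 6 tested rose in HFD liver, Jun (1.36, adjusted p = 0.019) and Atf3 (1.22, adjusted p = 0.00041), and 0 of 5 in islets, and of the clock genes 1 of 10 rose in liver and 2 of 10 fell in islets. The summed hepatocyte markers ran from 7.0 to 130 FPKM in islets against 29480 to 70080 in liver. The summed beta cell markers ran from 0.1 to 3698 FPKM in liver against 574900 to 991900 in islets, so each tissue had far more of its own markers. Some livers still held beta cell markers. In islets Tat had a median of 11.2 FPKM and Alb 0.84, so the usual islet hepatocyte sum was largely Tat. In liver the beta cell sum had a median of 30.8 FPKM on CD and 0.355 on HFD. Ins1 (-1.73, adjusted p = 0.013) and Ins2 (-2.045, adjusted p = 0.012) were lower on HFD there. Over the livers Ins1 ran from 0 to 1074 FPKM and Ins2 from 0 to 2467. Where this insulin RNA came from was not tested, so the difference cannot be read as one of liver cells. Islet acinar markers summed to 3803 to 140500 FPKM. In whole tissue fewer cells of a type and less RNA per cell cannot be told apart, and the part of these markers in the differences above was not tested. Txnip gave r between -0.13 and 0.23 with the sums of these cell type lists over 48 libraries of a tissue.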

How the data were processed

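Poly(A) RNA of islets and liver was sequenced on BGISEQ-500. Per the labels and the submitters' processing notes, reads were handled with HISAT2 2.0.4, Bowtie2 2.2.5 and RSEM 1.1.12 on GRCm38.p5, and the authors deposited gene-level FPKM to 2 decimals, which are normalized values and not counts. The deposited fold changes, p-values and module columns of the authors were not used, and the depth per library is unknown because the table holds no read counts. FPKM is relative to the mapped fragments of a library, so abundant genes such as insulin lower the others. The summed FPKM of a library was not fixed. It ran from 892100 to 1279000 in islets and from 560000 to 672400 in liver.

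Values were analysed as log2(FPKM + 1) with limma 3.58.1 (R 4.3.3, trend and robust settings), so fold changes of low genes are understated. Genes needed at least 1 FPKM in 4 of the 8 libraries of a weekly fit, in 24 of 48 for a tissue, and in both tissues for the fit of 96 libraries, and p-values were adjusted by Benjamini-Hochberg over all genes tested, at a threshold of 0.05. All 5 genes passed each filter. The mean diet effect is the average of the 6 weekly contrasts in the fit of 12 groups. Correlations over 48 mice used values with the group mean subtracted and 100000 shuffles within groups, two-sided, adjusted over 5 or 20 tests. The genes called most alike are the 3 with the highest Pearson's r for each gene and tissue, and other lists were given at most 3 named genes past the threshold. Islets and liver were matched by the mouse number in the sample titles. The tests were run on simulated data first. Each mouse was 1 library per tissue.

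The 5 genes, the lists and the tests were chosen with earlier results of these data known, and the alternatives for the correlations were added after their values were seen. One result of the list of hexose entry and fructose breakdown, and the counts over that list, are not reported here.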

Additional observations from a re-analysis of the deposited data

Results flagged for a closer look

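Of 120 groups of 4 mice, one for each gene, tissue, diet and week, 11 held a mouse whose gap to the next was large for the range of its group (beyond Dixon's 95% critical value). Chance flags about 1 in 20 groups if values are normally distributed. The gaps were taken on FPKM without logs, and the share of flagged groups over all genes was not computed. The count of 11 therefore cannot be called unusual for these genes. Of the 11, 5 were Txnip values. Mouse HFD118 at week 4 stood out in both tissues, with 682 FPKM in islets (others 73.6 to 85.6) and 188.8 in liver (others 17.5 to 35.9), and also in islet Pklr, with 7.77 (others 5.74 to 6.03). Mouse CD203 had 681 FPKM of islet Txnip at week 8 (others 89.8 to 152), and mouse CD306 had 440 at week 12 (others 113.04 to 161). Mouse CD605 stood out at the low end, with 81.6 FPKM at week 24 (others 121 to 128).

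Mouse HFD411 had 9.79 FPKM of islet Arrdc4 at week 16 (others 3.60 to 4.21). In islets Khk was 13.4 FPKM in mouse CD207 at week 8 (others 11.5 to 11.8) and 22.1 in mouse HFD315 at week 12 (others 17.4 to 18.1). In liver Mlxipl was 122 FPKM in mouse HFD516 at week 20 (others 77.6 to 82.5), and Pklr was 121 in mouse CD304 at week 12 (others 24.3 to 36.8).

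The diet effect differed between the tissues, by the test of the difference itself, for 2 genes of the group. Of all 9024 genes tested in both tissues 39.4% passed the same test. The count of 2 is therefore near the background and cannot be called particular to this group. Liver minus islets was 0.58 for Pklr (adjusted p = 0.0055), which was higher on HFD in liver, and -0.43 for Arrdc4 (adjusted p = 0.0075), which was higher on HFD in islets.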

How the results depend on the processing

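The mean diet effects of Txnip and Arrdc4 in islets and of Txnip and Pklr in liver, and the tissue differences of Pklr and Arrdc4, kept their direction and stayed past the threshold under each alternative run and without any single library. The weekly count of calls, 0 of 30 in either tissue, became 1 in islets with median-ratio scaling (Khk at week 16) and 3 with the insulin genes left out of the islet totals (Arrdc4 at week 12, Mlxipl and Khk at week 16), where the median of all genes moved to 0.19 at week 12 and 0.14 at week 16. In liver it became 1 without the trend and robust settings (Pklr at week 16) and 2 with all 12 groups in one fit (Khk at week 4 and Pklr at week 12). Leaving out single libraries gave 0 to 1 calls in each tissue, so no weekly call is stable. The shares of all genes called under these alternatives were not computed, so the counts cannot be called particular to this group. A pass reached by dropping the mouse that most opposed a difference shows only how the value hangs on that mouse. It is not a call. Over single libraries left out, the islet Pklr effect ran from -0.118 to -0.087 and lost the threshold for 21 of 48, and it was -0.030 without the insulin genes. Khk was past the threshold at 0.18 in islets without the insulin genes and at -0.21 in liver with median ratios. The Khk tissue difference, -0.22 (adjusted p = 0.10), was -0.31 with median ratios and -0.30 without the insulin genes, and -0.264 to -0.188 over single libraries left out, past the threshold without the liver library of mouse CD101 or of mouse HFD617. With median ratios over both tissues, the CD level of liver minus islets was 0.21 for Mlxipl and 0.33 for Arrdc4, opposite to -0.26 and -0.05, and the correlations of islets with liver were -0.21 for Pklr and -0.27 for Khk, no longer past the threshold. In 43 of 2023 recomputed values the sign changed with neither value past the threshold, mostly weekly values near 0. The cause of these changes was not tested. With the mouse number as a replicate block in the fit of 96 libraries (consensus correlation 0.06) the tissue differences were 0.58 for Pklr and -0.43 for Arrdc4, and no call of a tissue or level difference changed. Diet, week and tissue groups of 4 mice and an unknown depth limit what a weekly comparison can show.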
